A study of Mus musculus with 10 samples.

Results

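The genes described here had less signal in mouse marrow progenitors immortalized by NUP98-NSD1 than in every culture immortalized by another oncogene. They were selected on their measured values in these arrays: a probe set with 1 gene symbol qualified if its lowest signal over the other 7 arrays was at least 1000 and at least 2 times its highest signal over the 3 NUP98-NSD1 arrays. Where several probe sets of a gene qualified, the one with the highest mean was taken, and Nsd1 was left out by the rule. The rule found 9 genes among 18192 with a symbol of their own on the array, namely Ighm, Rnase4, Slc22a4, Nrg2, Emb, Polr2f, Prdx4, Mchr1 and Plekha1. Of the 7806 genes that reached 1000 in all of the other 7 arrays, these are 0.115%. The difference between NUP98-NSD1 and the other arrays chose the genes, so it is given as a description, without a test.

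RNA came from primary marrow progenitors of the mouse that had been made to grow without limit in culture, all derived in medium with stem cell factor and without GM-CSF. There were 3 clones immortalized by the homeobox factor HoxA9, 3 by HoxA9 coexpressed with its cofactor Meis1 (HoxA9+Meis1), 3 by NUP98-NSD1 and 1 culture by MLL-ENL. Each was measured on 1 Affymetrix Mouse Genome 430 2.0 array. The labels name neither the strain nor the animals, so the spread between clones may be technical in part, and the p-values measure no more than that spread. A culture is a bulk sample, in which fewer cells of a type and less RNA per cell cannot be told apart.

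NUP98-NSD1 joins a nucleoporin, whose disordered repeats bring in other proteins, to a histone methyltransferase. MLL-ENL fuses the start of a different histone methyltransferase with ENL, a factor of transcript elongation. Both fusions are known to keep Hox-A genes on in myeloid progenitors. The 9 genes belong to no common pathway: they encode an immunoglobulin chain, a secreted ribonuclease, a growth factor, a receptor, a cation transporter, a transporter chaperone, a peroxidase, a lipid-binding adaptor and an RNA polymerase subunit.

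Some properties of the whole data set bear on these genes. Hybridization controls, RNAs spiked in before hybridization, had mean log2 signals of 14.01 to 14.13 in MLL-ENL and NUP98-NSD1, but of 13.18 to 13.42 in HoxA9 and HoxA9+Meis1. The arrays thus form 2 sets, and between groups of different sets, set and group cannot be told apart. MLL-ENL lies in the same set as NUP98-NSD1, and all 9 genes had at least 2 times as much signal there, which the rule itself required. All 10 listed genes of myeloid progenitors were on the array, and their summed signal was 877047 to 1028490 in NUP98-NSD1, 973618 in MLL-ENL and 585956 to 699541 in the others. The brightest of them, Mpo, Ctsg, Prtn3 and Elane, weigh most in this sum, and not every gene followed it. Cebpa averaged 21165 in NUP98-NSD1, 33536 in HoxA9 and 30927 in HoxA9+Meis1. Cd34 averaged 24618, 679 and 49234 in these groups. NUP98-NSD1 cells also carried more summed signal of the listed neutrophil genes and of the listed mast cell or basophil genes. For 6 of 6 neutrophil genes on the array the summed signal was 428542 to 970174 in NUP98-NSD1, 14462 to 72841 in HoxA9, 7888 to 90754 in HoxA9+Meis1 and 14503 in MLL-ENL, and all 6 were above the filter level (a signal of 369) in every NUP98-NSD1 array. For 5 of 5 mast cell or basophil genes it was 56234 to 218269 in NUP98-NSD1, 5384 to 9874 in HoxA9, 12385 to 22965 in HoxA9+Meis1 and 2854 in MLL-ENL. The part of these cell types in the low signal of the 9 genes was not tested. Of the Nsd1 probe sets, the brightest read 603 to 937 in NUP98-NSD1 and 1655 to 5223 elsewhere, a ratio of 1.77 that would not have met the rule.

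Promoter sequences are shown for 4 of the genes: the 3 that share the letters CACGTG, an E-box read by factors such as Myc and Usf1, and Rnase4, whose promoter also serves its neighbour Ang. Each runs from 250 bases before to 50 bases after a transcription start, 5′ to 3′ on the strand of the gene, from RefSeq on GRCm38.p6. Capitals mark CACGTG and the GC box GGGCGG or its reverse complement.
Prdx4, chrX:155338411-155338710, minus strand: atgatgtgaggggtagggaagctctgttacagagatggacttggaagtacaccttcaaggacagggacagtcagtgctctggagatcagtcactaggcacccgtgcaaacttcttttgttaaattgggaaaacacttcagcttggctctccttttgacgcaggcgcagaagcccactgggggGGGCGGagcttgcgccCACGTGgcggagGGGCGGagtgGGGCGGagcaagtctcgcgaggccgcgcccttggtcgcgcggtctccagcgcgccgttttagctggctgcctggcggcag
Slc22a4, chr11:54028055-54028354, minus strand: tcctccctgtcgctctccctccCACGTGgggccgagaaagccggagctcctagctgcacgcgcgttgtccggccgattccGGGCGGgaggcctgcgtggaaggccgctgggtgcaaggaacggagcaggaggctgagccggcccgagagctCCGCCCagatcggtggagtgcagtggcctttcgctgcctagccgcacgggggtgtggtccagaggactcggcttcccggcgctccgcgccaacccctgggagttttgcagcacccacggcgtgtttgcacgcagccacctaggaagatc
Mchr1, chr15:81235249-81235548, plus strand: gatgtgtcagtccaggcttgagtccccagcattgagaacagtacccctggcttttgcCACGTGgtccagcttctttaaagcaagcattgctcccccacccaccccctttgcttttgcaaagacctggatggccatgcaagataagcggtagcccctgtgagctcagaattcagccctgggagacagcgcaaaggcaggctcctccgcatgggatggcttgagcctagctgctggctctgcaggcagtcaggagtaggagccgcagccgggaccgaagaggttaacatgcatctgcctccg
Rnase4 and Ang, chr14:51090827-51091126, plus strand: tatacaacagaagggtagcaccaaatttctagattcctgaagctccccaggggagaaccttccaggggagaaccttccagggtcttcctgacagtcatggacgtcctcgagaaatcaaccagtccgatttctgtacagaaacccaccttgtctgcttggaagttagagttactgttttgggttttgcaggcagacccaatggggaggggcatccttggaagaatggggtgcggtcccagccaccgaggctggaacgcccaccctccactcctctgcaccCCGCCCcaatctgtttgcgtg

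The table held 9 promoters for 7 of the genes, and none for Ighm or Nrg2. On either strand, CACGTG was found in 3 of the 9 promoters, against 7.15% of all 32851 promoters of this length. GGGCGG was found in 5 of the 9 (35.7% of all), CCAAT in 2 (37.4%) and TGACAG, the core that Meis proteins bind, in 3 (19.2%). Neither TATAAA (13.6%) nor TGATTNAT, the joint motif of Hox and Pbx proteins (3.22%), occurred in any of them. None of these motifs holds another within it, and a match is not a measured binding site. The number of CpG dinucleotides was lowest in the Rnase4 promoters, at 2 and 8, and highest in a Plekha1 promoter, at 39, and 8 of the 9 promoters had more than the median of 7 over all promoters.

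Signals are the deposited intensities on a linear scale. In the order of clones 1, 2 and 3, values are given for HoxA9, HoxA9+Meis1, NUP98-NSD1 and then the MLL-ENL array. Levels of different genes are not compared, since probe sets differ in how they bind. Log2 differences were taken after 32 was added to each signal, which understates the difference of dim genes.

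**Figure D1:**
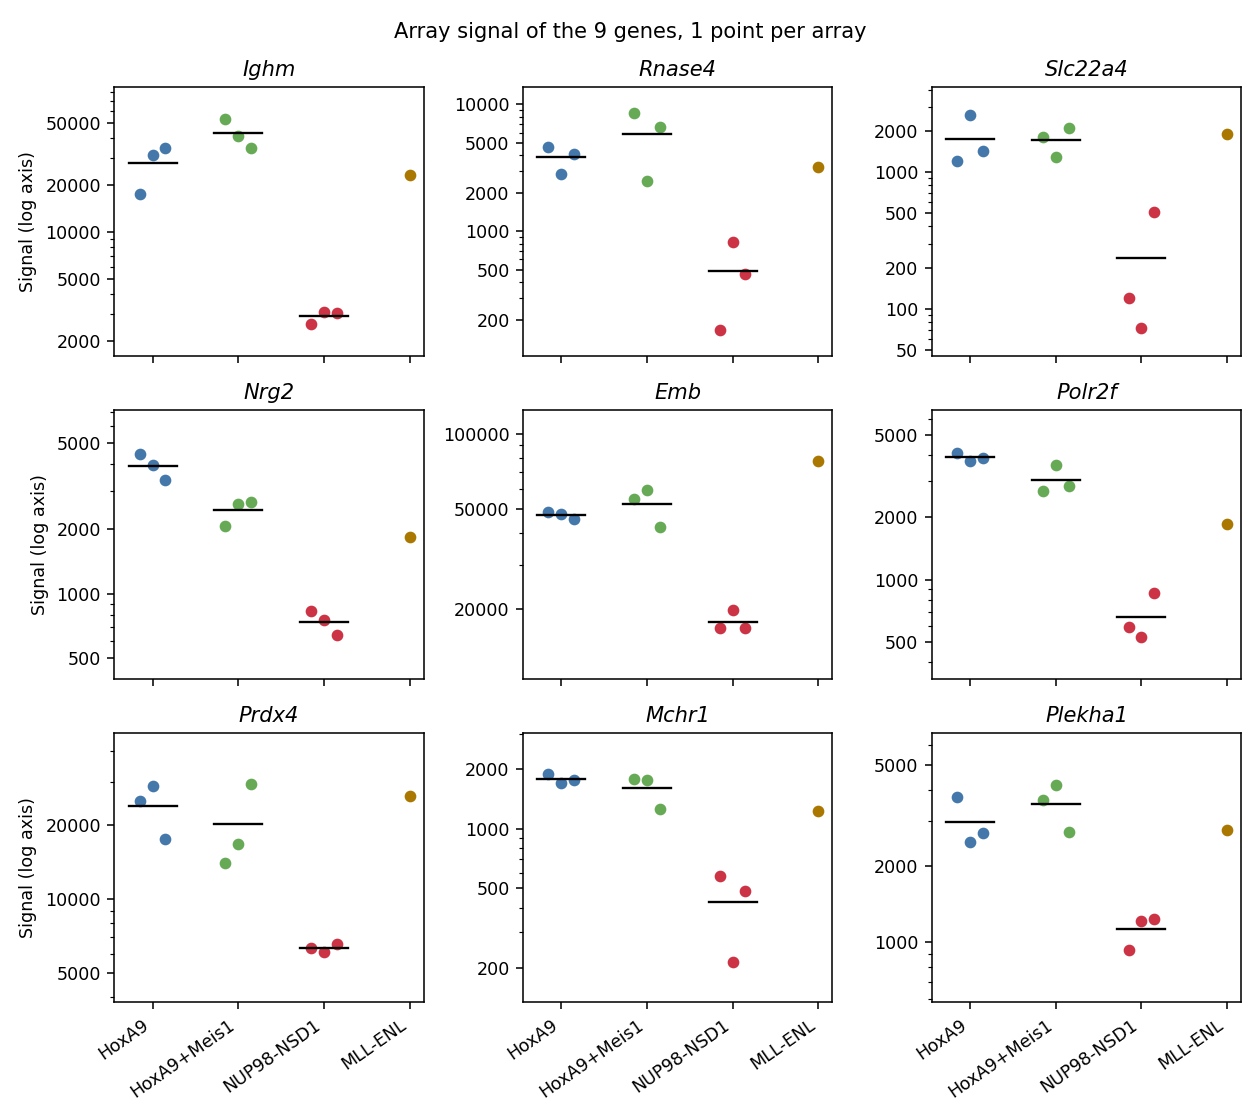
Signal of the 9 genes on a log axis, 1 point per array, by oncogene; the black lines are means of 3 clones. In each panel all 3 NUP98-NSD1 points lie below all other points by at least 2-fold, as the selection required, while the order of the other groups differs from gene to gene.

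Ighm, the constant region of the immunoglobulin mu heavy chain that B cells use in their first antigen receptor, had the widest gap. Its probe set 1427351_s_at read 17729, 31388 and 34656 in HoxA9 and 53305, 41658 and 34683 in HoxA9+Meis1. It read 2562, 3059 and 3036 in NUP98-NSD1 and 23393 in MLL-ENL. The NUP98-NSD1 clones lay close together, and the dimmest other array, HoxA9 clone 1, was 5.80 times as bright as the brightest of them. The mean of the other 7 arrays was 11.7 times the NUP98-NSD1 mean. A second bright probe set, 1427329_a_at, read 3260.3 to 4152 in NUP98-NSD1 and 8251 to 42027 in the others, again without overlap. The array held 11 probe sets for Ighm, of which 6 were above the filter level in at least 3 arrays, and in the other 4 of these NUP98-NSD1 overlapped the rest. The brightest of the 4, 1427870_x_at, was low in both fusions. It read 1821 to 1988 in NUP98-NSD1 and 1748 in MLL-ENL, against 3182 to 4854 in the HoxA9 and HoxA9+Meis1 clones. The suffixes _s_at and _a_at mark probe sets that can read more than 1 transcript.

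Cd79a, a signalling chain of the B cell receptor, had a mean of 455 ± 334 (SD, n = 3) in NUP98-NSD1, 432 ± 108 in HoxA9 and 732 ± 389 in HoxA9+Meis1. Of 8 measured chains of the B cell and pre-B cell receptor, 0 were called between NUP98-NSD1 and HoxA9 by limma at an adjusted p under 0.05. Genes outside the 9 are named here and below after their values were seen. Over all 14233 genes, 13.3% rose and 18.2% fell in that comparison. Against HoxA9+Meis1, where 14.2% of genes rose and 18.2% fell, 2 of the 8 fell. These were the surrogate light chain genes Vpreb1 (106 ± 79.0 against 2314 ± 1779, log2 difference -3.65) and Vpreb3 (357 ± 236 against 1058 ± 241, -1.75, SE 0.54, adjusted p = 0.0309). Vpreb1 was above the filter level on average in HoxA9+Meis1 alone, with 189 in HoxA9 and 25.2 in MLL-ENL. It thus entered the fit mainly through the group where it was high, so its fall is a description. Only 11 alternatives kept Vpreb1 in the fit, and the others did not check its call. Vpreb3 lost its call without any one of the HoxA9+Meis1 clones and under both other scalings. The median of the 8 was -0.23 against HoxA9 and -1.29 against HoxA9+Meis1, beside -0.14 and -0.13 over all genes. In the list of 21 lymphoid genes 13 were measured, with medians of -0.12 and -0.89. Satb1 rose and Lef1 fell against HoxA9 (log2 2.50 and -1.51, adjusted p = 0.0220 and 0.0199), and Il7r and Vpreb1 fell against HoxA9+Meis1 (Il7r -2.05, adjusted p = 0.0206). The call on Satb1 ended without HoxA9 clone 2 or 3 or NUP98-NSD1 clone 1 or 2, that on Lef1 without HoxA9 clone 2 or 3, and that on Il7r without HoxA9+Meis1 clone 1 or 2.

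Rnase4, a secreted ribonuclease of the RNase A family, read 4638, 2823 and 4086 in HoxA9 and 8546, 2503 and 6638 in HoxA9+Meis1. In NUP98-NSD1 it read 166, 828 and 463, and in MLL-ENL 3240.1. The groups did not overlap, although the NUP98-NSD1 clones spanned 4.99-fold and the other 7 arrays 3.41-fold. The other arrays averaged 9.55 times the NUP98-NSD1 mean. The gene has 1 probe set, 1422603_at, so no second reading was at hand.

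Ang, the angiogenin gene, starts at the same base as Rnase4 on GRCm38.p6, and the promoter on chromosome 14 printed above is common to both. Its probe set read 304 ± 251 in NUP98-NSD1, 733 ± 144 in HoxA9, 765 ± 119 in HoxA9+Meis1 (SD, n = 3 each) and 558 in MLL-ENL. Its highest NUP98-NSD1 value, 585, lay above the MLL-ENL value, so the groups overlapped. Ang fell against HoxA9 (log2 difference -1.44, SE 0.50, adjusted p = 0.0488) and against HoxA9+Meis1 (-1.51, SE 0.50, adjusted p = 0.0405). These calls ended in 13 and 12 of the alternatives, among them leaving out any 1 HoxA9 or HoxA9+Meis1 clone, or NUP98-NSD1 clone 1 or 3. Of 6 measured relatives of Rnase4, 1 other was called: Rnase6 rose against HoxA9 from 130 ± 69.9 to 715 ± 332 (log2 2.18, SE 0.73, adjusted p = 0.0452), and lost this call without any one HoxA9 clone, HoxA9+Meis1 clone 2 or NUP98-NSD1 clone 1 or 2. The medians of the 6 were -0.24 and -0.26, beside -0.14 and -0.13 over all genes, of which 18.2% fell in each comparison and 13.3% and 14.2% rose.

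Nrg2, a neuregulin and so a ligand of ErbB receptor kinases, read 4437, 3954 and 3379.5 in HoxA9 and 2062, 2620.3 and 2660.45 in HoxA9+Meis1. It read 828, 753 and 641 in NUP98-NSD1 and 1841 in MLL-ENL. The groups separated into steps, with HoxA9 highest, HoxA9+Meis1 and MLL-ENL between, and NUP98-NSD1 lowest. The fold of the other arrays over NUP98-NSD1 was 4.04. The brightest Nrg2 probe set, 1457283_at, kept NUP98-NSD1 lowest, at 216 to 1222 against 1483 to 4548, but placed MLL-ENL, at 3940, just below the 4257 to 4548 of the HoxA9 clones. The dimmest overlapped between groups.

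Among 9 other ErbB ligands and receptors measured, 3 fell in NUP98-NSD1 against HoxA9 and 3 against HoxA9+Meis1, and none rose. Of all genes, 18.2% fell in each comparison, and 13.3% and 14.2% rose. The list was written after the members were seen, and its count was not tested against these shares. The medians of the 9 were -0.62 and -0.63, beside -0.14 and -0.13 over all genes. Btc, the ligand betacellulin, averaged 458 ± 87.3 in NUP98-NSD1, 1104 ± 50.9 in HoxA9 and 1024 ± 182 in HoxA9+Meis1, with log2 differences of -1.23 (SE 0.26, adjusted p = 0.00652) and -1.11 (SE 0.26, adjusted p = 0.00997). Egfr, the epidermal growth factor receptor, fell from 5835 ± 746 in HoxA9+Meis1 to 2909 ± 868 (-1.04, SE 0.21, adjusted p = 0.00463) and by 0.67 on the log2 scale against HoxA9 (adjusted p = 0.0340). Tgfa, a ligand of that receptor, fell by 0.57 and 0.63 on that scale (adjusted p = 0.0300 and 0.0192). In MLL-ENL Btc read 294, Tgfa 1749 and Egfr 3025, against means of 458, 1834 and 2909 in NUP98-NSD1. The Egfr call against HoxA9 ended without any one HoxA9 clone or NUP98-NSD1 clone 3. That of Tgfa ended against HoxA9 without HoxA9 clone 1 or 2 or NUP98-NSD1 clone 2 or 3, and against HoxA9+Meis1 without its clone 1. A common median of all arrays ended these 3 calls as well.

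Mchr1, the G protein-coupled receptor for melanin-concentrating hormone, read 1882, 1688 and 1761 in HoxA9 and 1767, 1747 and 1257 in HoxA9+Meis1. It read 579, 214 and 487 in NUP98-NSD1 and 1222 in MLL-ENL. MLL-ENL was the dimmest of the other arrays, 2.11 times the brightest NUP98-NSD1 clone. The slightly brighter probe set 1454845_x_at overlapped, with 574 to 1118 in NUP98-NSD1 and 743 in MLL-ENL against 1418 to 2061 in the 6 remaining arrays. Pmch, the gene of the hormone, averaged 678 ± 355 in NUP98-NSD1 and 412 ± 286 in HoxA9, and was called in neither comparison.

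Slc22a4, a transporter of organic cations and of the antioxidant ergothioneine, read 1201, 2612 and 1421 in HoxA9 and 1796, 1284 and 2099.6 in HoxA9+Meis1. It read 121, 72.0 and 512 in NUP98-NSD1 and 1916 in MLL-ENL. Its NUP98-NSD1 clones differed by 7.11-fold, the widest span among the 9 genes, and clones 1 and 2 were below the filter level. The fold of the means was 7.50. Slc22a5, the related carnitine transporter, fell by 0.51 on the log2 scale against HoxA9 and by 0.52 against HoxA9+Meis1 (SE 0.14 each, adjusted p = 0.0183 and 0.0160), but at 2451 ± 198 in NUP98-NSD1 it stayed above the 1567 of MLL-ENL. Its calls ended under a common median, and without HoxA9 clone 1 or HoxA9+Meis1 clone 2 in turn. Of 11 other Slc22a genes measured, 2 fell and 0 rose against HoxA9, and 1 fell and 1 rose against HoxA9+Meis1, with a median of -0.48 in each. Of all genes, 18.2% fell in each comparison, and 13.3% and 14.2% rose, with medians of -0.14 and -0.13. The count of Slc22a genes that fell is thus near the share of all genes.

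Emb encodes embigin, a membrane glycoprotein that carries the monocarboxylate transporter Slc16a7 to the cell surface. It read 48559.6, 47860.4 and 45509 in HoxA9 and 54596, 59564 and 42310.1 in HoxA9+Meis1. It read 16775, 19699 and 16795 in NUP98-NSD1 and 77366 in MLL-ENL. The fold of means was 3.02, and MLL-ENL was the brightest array rather than one of the dimmest. The brighter probe set 1415857_at gave the same order, with 28697 to 36337 in NUP98-NSD1, 60775 to 82281 in the HoxA9 and HoxA9+Meis1 clones and 112056 in MLL-ENL.

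Slc16a7 itself fell in NUP98-NSD1 against HoxA9, from 2165 ± 319 to 518 ± 153 (log2 difference -2.03, SE 0.38, adjusted p = 0.00352). It averaged 1186 ± 631 in HoxA9+Meis1, from which it was not called, and like Emb it was brightest in MLL-ENL, at 3251. Slc16a10, which carries aromatic amino acids, fell to 3231 ± 726 from 6684 ± 344 in HoxA9 (-1.06, SE 0.16, adjusted p = 0.00108) and from 6894 ± 995 in HoxA9+Meis1 (-1.10, SE 0.16, adjusted p = 8.7e-04), and read 6149 in MLL-ENL. Bsg, the chaperone of other monocarboxylate transporters, differed by -0.03 (log2) from HoxA9 (adjusted p = 0.824). Of 13 genes in this family measured besides Emb, 3 fell and 0 rose against HoxA9, and 2 fell and 1 rose against HoxA9+Meis1, with medians of -0.28 and -0.15. The shares of all genes that fell were 18.2% in each comparison, and 13.3% and 14.2% rose, with medians of -0.14 and -0.13.

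Prdx4 is the peroxiredoxin of the endoplasmic reticulum, where it uses hydrogen peroxide to oxidise protein disulfide isomerases. It read 25144, 28972 and 17611 in HoxA9 and 14036, 16853 and 29611 in HoxA9+Meis1. It read 6341, 6101 and 6563 in NUP98-NSD1 and 26337 in MLL-ENL. The NUP98-NSD1 clones spanned only 1.08-fold, the narrowest among the 9 genes, while the other arrays spanned 2.11-fold. Probe sets 1416166_a_at (4798 to 8730.2 against 9636 to 25639) and 1435731_x_at (1513 to 2787 against 4316 to 7183) also kept NUP98-NSD1 below all other arrays.

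Of 11 other measured genes of peroxiredoxins and oxidative protein folding, 3 fell and 0 rose against HoxA9, where 18.2% of all genes fell. Against HoxA9+Meis1, where likewise 18.2% fell, 4 fell and 1 rose. The medians were -0.19 and -0.25, beside -0.14 and -0.13 over all genes. Txndc5, a disulfide isomerase, fell to 15086 ± 2768 from 25819 ± 752 in HoxA9 (log2 difference -0.79, SE 0.13, adjusted p = 0.00168), and its difference from HoxA9+Meis1 was -0.86 (adjusted p = 0.00101). Qsox1, a sulfhydryl oxidase, fell by 0.91 and 1.03 on the log2 scale (SE 0.12 each, adjusted p = 5.6e-04 and 2.8e-04), and was dimmer still in MLL-ENL, at 1346 against 2635 ± 331. Pdia3 fell by 0.45 and 0.47 (adjusted p = 0.00268 and 0.00213), calls that a common median ended. The cytosolic Prdx2 and mitochondrial Prdx3 differed from HoxA9 by 0.29 and -0.10 (adjusted p = 0.204 and 0.582). Prdx2 fell against HoxA9+Meis1 (-0.59, adjusted p = 0.0193), a call that ended without HoxA9+Meis1 clone 1 or 2, without NUP98-NSD1 clone 3 and under a common median. In the wider list of glycolysis, mitochondria and redox genes, 5 of 20 rose and 3 fell against HoxA9, and 7 rose and 4 fell against HoxA9+Meis1, with medians of 0.25 and 0.14. Of all genes, 13.3% and 14.2% rose in these comparisons. The balance within the list turned under quantile normalization, with 3 higher and 7 lower against HoxA9. Gclm, which makes glutathione precursor, rose from 7041 ± 634 in HoxA9 to 13143 ± 811 (log2 0.90, SE 0.15, adjusted p = 0.00182), while Cat, the catalase gene, fell from 18225 ± 274 to 10699 ± 814 (-0.77, SE 0.08, adjusted p = 1.6e-04).

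Plekha1, an adaptor whose pleckstrin homology domain binds the lipid PI(3,4)P2, was the gene nearest to the threshold. It read 3735, 2480.1 and 2707 in HoxA9 and 3645, 4169 and 2724 in HoxA9+Meis1. It read 930.1, 1217 and 1239 in NUP98-NSD1 and 2779 in MLL-ENL. The dimmest other array was 2.002 times the brightest NUP98-NSD1 clone, and the fold of means was 2.82, the smallest of the 9. A dim second probe set, 1457491_at, overlapped between groups.

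Enzymes of the same lipid differed in both directions. Inppl1, which produces PI(3,4)P2 by removing a phosphate from PIP3, fell to 1927 ± 533 from 5892 ± 550 in HoxA9 (log2 difference -1.63, SE 0.20, adjusted p = 3.6e-04) and from 5118 ± 888 in HoxA9+Meis1 (-1.42, adjusted p = 7.0e-04). It read 3453 in MLL-ENL. Inpp4b, which removes a phosphate from PI(3,4)P2, averaged 3646 ± 2446 in NUP98-NSD1. It was below the filter level on average in HoxA9 (117 ± 125), HoxA9+Meis1 (87.2 ± 65.3) and MLL-ENL (27.1). Inpp4b passed the filter only through the NUP98-NSD1 arrays, where it was high, so its rise is a description. Only 13 alternatives kept it in the fit, and it is counted as risen in the family below. The closest relative, Plekha2, differed by -0.08 (log2) from HoxA9 (adjusted p = 0.696). Of 13 genes of this family measured, 2 rose and 1 fell against HoxA9, and 3 rose and 1 fell against HoxA9+Meis1, with medians of 0.06 and -0.05. In the list of PI3 kinase, Akt and mTOR genes, 4 of 17 rose and 3 fell against HoxA9, and 3 rose and 4 fell against HoxA9+Meis1, with medians of 0.07 and 0.04. For both lists the shares of all genes were 13.3% and 14.2% higher and 18.2% lower in each comparison, with medians of -0.14 and -0.13. Pik3r1, the regulatory subunit that precedes these lipids, fell from 12528 ± 810 in HoxA9 to 4966 ± 35.2 (-1.33, SE 0.08, adjusted p = 1.5e-05) and read 5049.9 in MLL-ENL.

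Polr2f, a small subunit shared by the 3 nuclear RNA polymerases, read 4109, 3752 and 3881 in HoxA9 and 2690.0, 3563 and 2846 in HoxA9+Meis1. It read 590.0, 529 and 863 in NUP98-NSD1 and 1853 in MLL-ENL. This was probe set 1427402_at, with a fold of means of 4.91. The other Polr2f probe set, 1415754_at, is brighter and differed little: 11489, 12937 and 12383 in NUP98-NSD1, 12968 in MLL-ENL and 12182 to 16519 in the others, with overlap. The 2 probe sets thus gave log2 differences from the other 7 arrays of -2.23 and -0.21, and the low signal holds for 1 of them. Which part of the transcript each reads was not used here.

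Among 10 other subunits of RNA polymerase II measured, 2 rose and 3 fell against HoxA9, and likewise 2 and 3 against HoxA9+Meis1, with medians of -0.13 and -0.15. Of all genes, 13.3% and 14.2% rose and 18.2% fell in each, with medians of -0.14 and -0.13. The largest subunit, Polr2a, rose to 16148 ± 1962 from 6335 ± 720 in HoxA9 (log2 1.34, SE 0.11, adjusted p = 5.6e-05) and from 9319 ± 39.6 in HoxA9+Meis1 (0.78, adjusted p = 7.7e-04). Polr2d fell by 0.48 and 0.82 on the log2 scale (SE 0.10 each, adjusted p = 0.00436 and 2.7e-04), the former call ending under a common median. MLL-ENL had 22560 for Polr2a and 5673 for Polr2d, on the side of NUP98-NSD1 in both cases.

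**Figure D2:**
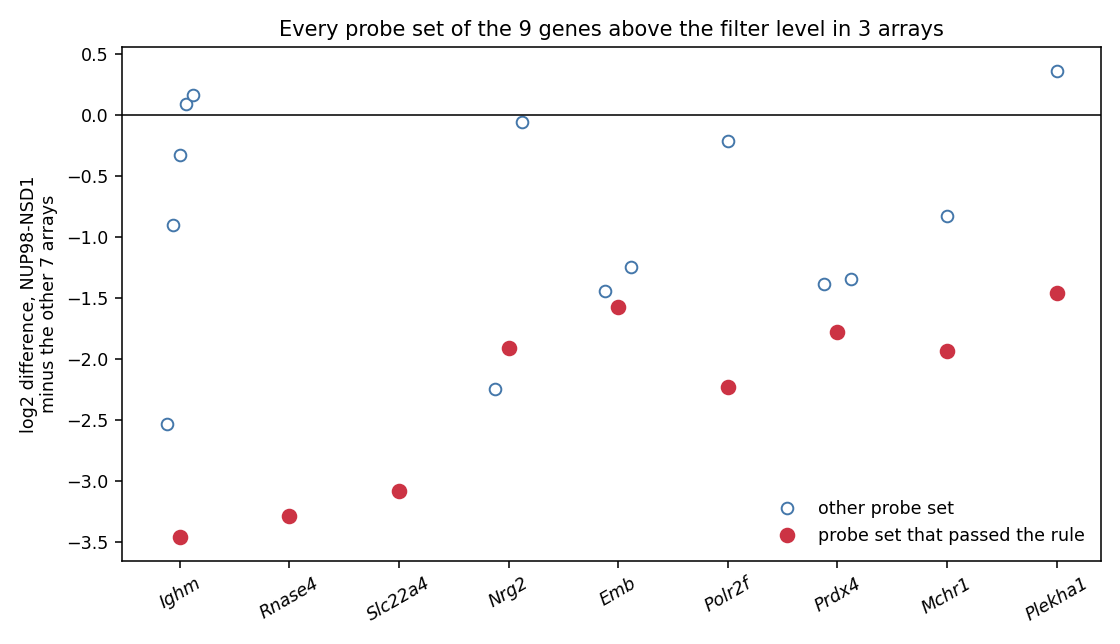
Log2 difference between NUP98-NSD1 and the mean of the other 7 arrays for the 23 probe sets of the 9 genes that were above the filter level in at least 3 arrays; filled points are the probe sets that passed the rule, open points the others. Emb and Prdx4 have all their points below -1, while Ighm, Nrg2, Polr2f, Mchr1 and Plekha1 each have at least 1 open point above -1.

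The array held 31 probe sets for the 9 genes, of which 23 were above the filter level in at least 3 arrays. Beside the 9 that passed the rule there were 14, which read the same RNA on the same arrays. The rule screened these 14 as well and none of them passed, so they are not readings from outside the selection. In 6 of the 14 NUP98-NSD1 lay below all other arrays, in 8 the groups overlapped, and in 0 NUP98-NSD1 lay above. The 6 belong to Ighm, Nrg2, Emb and Prdx4, so they are repeated readings of few genes. At 1 probe set per gene, NUP98-NSD1 lay below every other array in 7.69% of all genes. The share over all probe sets was not computed, and nothing more is read from the count. The probe set that passed was the brightest of its gene for 5 of the 9, and for Nrg2, Emb, Polr2f and Mchr1 it was not. If the brightest probe set of each gene is taken first and the rule applied to it, a reading chosen after the data were seen, 5 genes remain.

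NUP98-NSD1 clones did not rank in the same order across the 9 genes. Clone 1 was the brightest of the 3 for 2 genes, clone 2 for 3 genes and clone 3 for 4 genes. The other arrays also took turns at being closest to NUP98-NSD1: the dimmest was MLL-ENL for Nrg2, Polr2f and Mchr1, a HoxA9 clone for 3 genes and a HoxA9+Meis1 clone for 3. Ighm, Emb and Prdx4 were above 1000 in all NUP98-NSD1 arrays, while 1 clone was below the filter level for Rnase4 and for Mchr1, and clones 1 and 2 for Slc22a4. No detection calls were used, so whether the dimmer genes were expressed at all in NUP98-NSD1 was not tested. All 9 passed the filter, as they had to, through the other 7 arrays. Over the 9 genes the fold of means ranged from 2.82 to 11.7, with a median of 4.04 and a median log2 difference of -1.93.

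The number of genes depended on single arrays. Leaving out NUP98-NSD1 clone 3 raised it to 48, and leaving out NUP98-NSD1 clone 1 or HoxA9 clone 1 raised it to 14 each. Just inside the threshold lay Plekha1, Mchr1 and Prdx4, with ratios of 2.002, 2.11 and 2.14. Just outside lay the adaptor gene Traf3ip2 (1.997), the membrane protease gene St14 (1.996) and the ganglioside activator gene Gm2a (1.992). By the floor of 1000, the nearest outside were Meg3, with a lowest other signal of 748 and a ratio of 4.81, Nenf (724, ratio 3.17) and Krt33b (720.5, ratio 4.21), and the nearest inside Slc22a4 (1201), Mchr1 (1222) and Nrg2 (1841).

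Turned to the other groups, the same rule found 19 genes low only in HoxA9 (0.247% of those that could pass) and 58 low only in HoxA9+Meis1 (0.748%). In MLL-ENL, a single array, 49 were low only there (0.64%). Turned to the other direction, it found 88 genes high only in NUP98-NSD1 (1.05%), 7 high only in HoxA9, 20 high only in HoxA9+Meis1 and 49 high only in MLL-ENL (0.561%). These counts are descriptions of the same arrays, and differences between them were not tested.

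The MLL-ENL array narrowed the selection from 114 genes, which met the rule against the 6 HoxA9 and HoxA9+Meis1 arrays alone, to 9. In 60 of the 114 MLL-ENL read less than the brightest NUP98-NSD1 clone, in 42 between 1 and 2 times as much, and in 12 at least 2 times as much. The 12 are the 9 genes described here and Prelid3a, Gfra3 and Lzic, whose MLL-ENL signals of 599, 375 and 506 were under the floor. The median ratio of MLL-ENL to the brightest NUP98-NSD1 clone was 0.935 over the 114 genes. Over the 9 it was highest for Ighm (7.65), followed by Prdx4 (4.01), Emb (3.93), Rnase4 (3.92) and Slc22a4 (3.74), while Plekha1 (2.24), Nrg2 (2.22), Polr2f (2.15) and Mchr1 (2.11) lay just above 2.

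**Figure D3:**
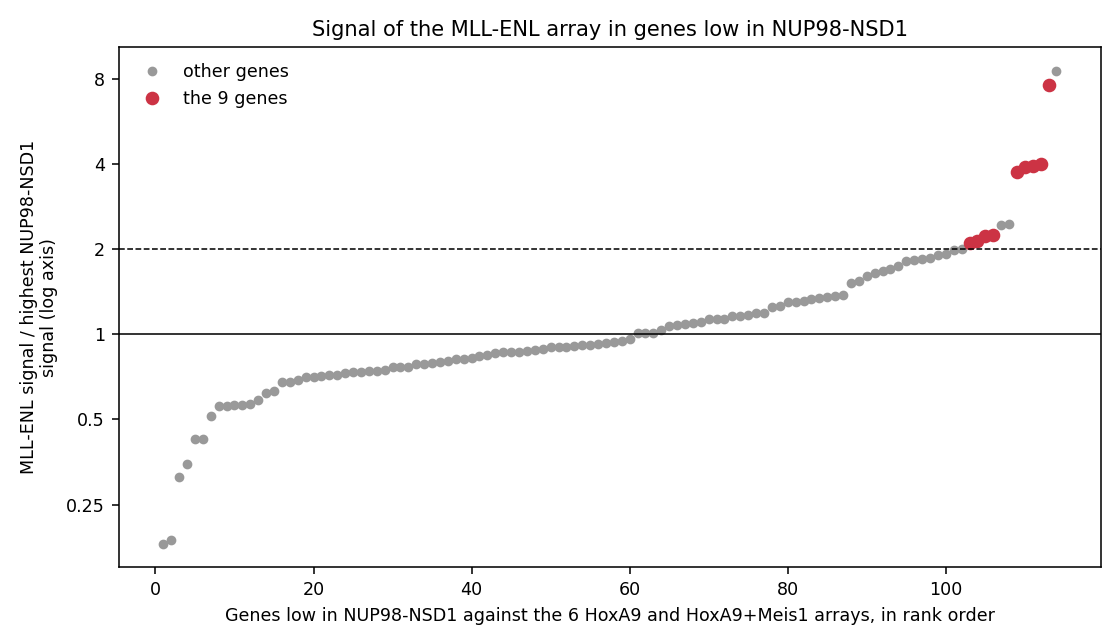
MLL-ENL signal divided by the brightest NUP98-NSD1 signal, on a log axis, for the 114 genes that meet the rule when the MLL-ENL array is left out, in rank order. Red points are the 9 genes, all above the dashed line at 2 by selection; 60 genes lie below the solid line at 1.

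The rule set a lower bound on every one of the other 7 arrays, and did so in the same way for HoxA9 and HoxA9+Meis1. It did not use the sign of the difference between them. Genes dim in either group were left out, however, which can make large differences between HoxA9 and HoxA9+Meis1 rarer among the 9. That difference was tested with limma, adjusted over all 14233 genes. Adding Meis1 to HoxA9 changed 1 of the 9: Nrg2 fell from 3923 ± 529 to 2447 ± 335 (log2 difference -0.67, SE 0.18, adjusted p = 0.0446). Over all genes, which had no such bound, 5.06% fell and 4.61% rose. With 1 lower and 0 higher of 9, nothing is read from the members' count. The call on Nrg2 is weak: it ended without any one HoxA9 or HoxA9+Meis1 clone, without NUP98-NSD1 clone 2 and under a common median. Ighm averaged 43216 ± 9408 in HoxA9+Meis1 and 27924 ± 8979 in HoxA9, and did not pass (log2 0.67, 95% interval 0.14 to 1.19 before adjustment, adjusted p = 0.115). When every probe set was tested alone, an alternative added after the data were seen, the second Ighm probe set 1427329_a_at was called higher (log2 1.37, SE 0.29, adjusted p = 0.0168). The interval of Slc22a4 (-1.19 to 1.27) allows a difference of 2-fold in either direction and that of Rnase4 (-0.75 to 1.68) one of 2-fold upward, while that of Emb (-0.14 to 0.39) allows neither.

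Comparisons with MLL-ENL are a description for these genes, since the rule removed genes with a low signal on that array and so made lower values there rarer among the 9. MLL-ENL is also a single array, assumed in the fit to vary like the clones, and it lies in the other set of arrays. Against HoxA9, Emb was higher by 0.71 on the log2 scale (SE 0.17), and its brighter probe set, fitted alone, by 0.72. Nrg2 and Polr2f were lower, by -1.07 and -1.06 (SE 0.26 and 0.29). These 3 passed the threshold of the fit, which 5.71% of all genes passed as higher and 8.92% as lower, and nothing is read from the members' count. Emb no longer passed without HoxA9 clone 3, nor under quantile normalization, where its difference was 0.41. Nrg2 no longer passed without HoxA9 clone 1 or 2, and Polr2f without any one HoxA9 clone or HoxA9+Meis1 clone 1, or under quantile normalization (-0.92). A shift of the arrays to a common median moved the median difference of all genes from -0.15 to 0.33, and changed the calls from 813 higher and 1270 lower to 1851 higher and 494 lower. Under it Emb differed by 1.19 and Nrg2 and Polr2f by -0.59 each, and neither of the latter passed.

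Against HoxA9+Meis1, MLL-ENL was higher in Emb, by 0.58 on the log2 scale (SE 0.17), and lower in Ighm (-0.86, SE 0.33) and Polr2f (-0.69, SE 0.29). Of these Emb alone passed the threshold of the fit, which 9.34% of all genes passed as higher and 12.3% as lower. It no longer passed without HoxA9+Meis1 clone 1 or HoxA9 clone 2, nor under quantile normalization, where its difference was 0.38. With a common median its difference was 1.03, and the calls over all genes changed from 1330 higher and 1753 lower to 2238 higher and 695 lower. Other probe sets, fitted alone, differed from those of the rule. Of Ighm, 1427329_a_at differed by -1.41 and 1427870_x_at by -1.36, while the dimmer 1425385_a_at differed by 0.82. Of Mchr1, 1454845_x_at differed by -1.15 from HoxA9+Meis1 and by -1.26 from HoxA9. The medians of the 9 genes in the 3 comparisons were 0.04, -0.20 and -0.36, beside -0.02, -0.15 and -0.14 over all genes. The last pair of comparisons shares the MLL-ENL array.

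**Figure D4:**
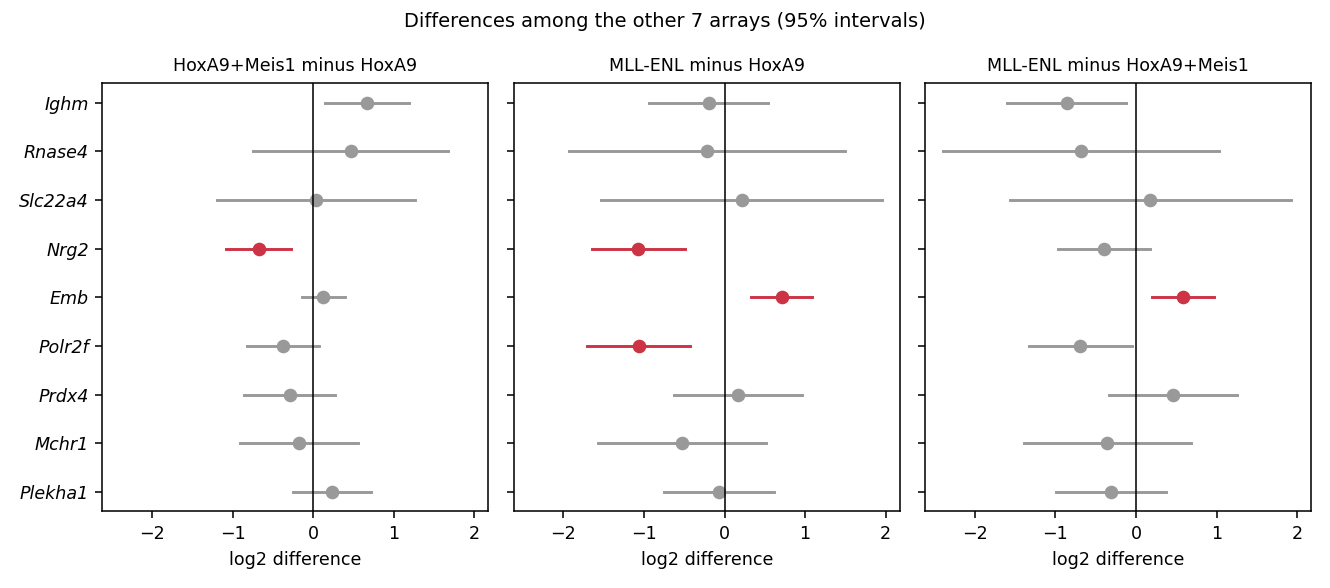
Log2 differences of the 9 genes among the other 7 arrays, with 95% intervals from limma that are not adjusted for the number of genes; red marks an adjusted p under 0.05. The rule set a lower bound on all of these 7 arrays, and the MLL-ENL panels are a description. Most intervals include 0, and the red points are Nrg2 in the left panel, Emb, Nrg2 and Polr2f in the middle panel and Emb in the right panel.

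The same scaling also matters to the other genes named above. Between NUP98-NSD1 and HoxA9, a common median changed 1887 higher and 2597 lower calls to 2039 and 1128, and between NUP98-NSD1 and HoxA9+Meis1 2016 and 2592 to 2030 and 1292. It moved the median over all genes from -0.14 to 0.05 and from -0.13 to 0.02.

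Neighbouring genes showed little of the same pattern. The 9 genes lie on 8 chromosomes of GRCm38.p6, and of the 3 protein-coding genes on each side of them, 54 in all, 36 were measured. Their median log2 difference between NUP98-NSD1 and the other 7 arrays was -0.02, beside -0.09 over all genes. In 1 of the 36 NUP98-NSD1 lay below every other array, compared with 7.69% of all genes, and 4 of the 36 differed by -1 or less, compared with 9.58%. The 1 gene was Ptchd1, a neighbour of Prdx4, which averaged 166 in NUP98-NSD1, 1403 in HoxA9, 1601 in HoxA9+Meis1 and 526 in MLL-ENL on a probe set that may cross-hybridize. The other 3 were Ang beside Rnase4, and Tacc2 and 4933402N03Rik beside Plekha1. Cystm1, beside Nrg2, went the other way, at 4391 in NUP98-NSD1 and 167 to 564 on average in the other groups.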

How the data were processed

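The deposited intensities are linear, 1 for each of 45101 probe sets on each of 10 arrays. Which software made them is not given in the sources used here. They were already scaled when deposited: trimmed of 2% of probe sets at each end, every array has a mean of about 2500.01, so nothing more was done to normalize them. Symbols came from the platform's annotation, updated by Entrez ID; 34945 probe sets carry 1 symbol, 932 several and 9211 none.

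The rule was applied to the intensities as deposited. The members and all gene lists, and the choice of genes named outside the lists' rule, were made with earlier results of these data known; the 9 family lists were written after the members, and some of their values, were seen. For tests, log2(signal + 32) was fitted, for probe sets that exceeded 369.318 (the 40th percentile of the table) on 3 or more arrays, with limma 3.58.1 in R 4.3.3: 1 probe set per gene (the members' own, otherwise the brightest), 4 group means, eBayes with trend, two-sided, Benjamini-Hochberg over 14233 genes, called under 0.05. The number of arrays limits the precision. Alternatives were 2 other scalings (quantile, common median), offsets, filters, eBayes settings, subsets of groups, a replicate block and leaving out each clone. Promoters and gene order are RefSeq's (GRCm38.p6).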

Additional observations from a re-analysis of the deposited data

How the results depend on the processing

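The 9 genes became 39 at a ratio of 1.5 and 2 at a ratio of 3, and 21 at a floor of 500 and 5 at a floor of 2000. There were 114 without the MLL-ENL array, 5 when the brightest probe set was chosen first (added after the data were seen), and 9 to 48 when 1 clone was left out. Quantile normalization gave 9 genes, 6 of them the same (without Plekha1, Polr2f and Slc22a4), and a common median 8, of which 5 were the same (without Emb, Plekha1, Prdx4 and Slc22a4). With the 9 genes kept as chosen, their median log2 difference stayed within the spread of the NUP98-NSD1 clones in all 13 alternatives run for it. The selection itself favours this, so it is no test of the result.

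Between HoxA9+Meis1 and HoxA9, the 1 lower member became 0 under a common median, with no filter, without a trend and with a replicate block, and 0 to 1 without 1 clone. The labels give no shared source for equal clone numbers, and whether such clones shared one was not tested. Same-numbered HoxA9 and HoxA9+Meis1 clones had deviations correlated at -0.004, -0.04 and -0.06, and unlike numbers at -0.01 to 0.05. The replicate block gave Nrg2 a log2 difference of -0.67 that was not called, with 479 higher and 522 lower genes in place of 656 and 720. Between MLL-ENL and HoxA9, 0 members were higher under quantile normalization and without a trend (0 to 1 without 1 clone), and 1 was lower under quantile normalization and 0 under a common median (0 to 2 without 1 clone). Between MLL-ENL and HoxA9+Meis1, 0 were higher under quantile normalization, without a trend and with only the groups compared (0 to 1 without 1 clone), and 1 was lower with only the groups compared (0 to 1 without 1 clone).

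Of the PI3 kinase, Akt and mTOR genes, 2 fell against HoxA9+Meis1 under a common median. Of the glycolysis, mitochondria and redox genes, 3 rose and 7 fell against HoxA9 under quantile normalization, and 1 fell against HoxA9 and 2 against HoxA9+Meis1 under a common median. Quantile normalization reversed P4hb against HoxA9+Meis1 (-0.0105) and Pkm against HoxA9 (-0.0644). The cause of these changes was not tested. Weak signal limits Rnase4, Slc22a4 and Mchr1, which had NUP98-NSD1 arrays below the filter level.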
